A study of Mus musculus with 2 samples.

Results

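The genes described here are 10 genes of carbohydrate digestion and hexose uptake, taken by name: the brush border hydrolases Sis, Mgam, Lct and Treh, the hexose transporters Slc5a1, Slc5a9, Slc2a1, Slc2a2 and Slc2a5, and the fructose kinase Khk. All 10 were found among the 24357 named genes of both expression tables. RNA had been sequenced from wildtype C57BL/6 mice, in epithelial cells freed from the ileum with EDTA and sorted as EpCAM-positive, CD45-negative and 7AAD-negative, that is, as living epithelial cells without leukocytes. There was 1 group of 2 libraries, named replicate 1 and replicate 2 in accession order, and the labels give no treatment, age or feeding state. Both sample titles begin with D15, which the labels do not explain. Levels of Lct and of other hydrolases are known to change with age, whose part in the levels here was not tested. The design therefore holds no contrast between conditions. No statement says that the libraries came from separate animals. Xist, transcribed from the inactive X chromosome, stood at 7.91 and 0.00640 FPKM in replicates 1 and 2. The Y-linked Eif2s3y stood at 0 and 14.9 FPKM. Replicate 1 thus had the sex-linked pattern of a female and replicate 2 that of a male. Effects of sex cannot be told apart from other differences between the libraries, and were not tested.

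Starch and sugars reach the small intestine as short chains and as disaccharides, which enzymes anchored in the enterocyte brush border split into monosaccharides. Sucrase-isomaltase (Sis) and maltase-glucoamylase (Mgam) act on sucrose, maltose and starch fragments, lactase (Lct) on milk sugar and trehalase (Treh) on trehalose. Glucose and galactose then enter with sodium through SGLT1 (Slc5a1), fructose enters through GLUT5 (Slc2a5), and hexoses leave on the blood side through GLUT2 (Slc2a2). Ketohexokinase (Khk) phosphorylates fructose in the enterocyte as the first step of its breakdown.

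The promoters of the 2 most abundant hydrolases, Lct and Sis, and of Slc2a1, the lowest of the 10 genes by mean though not in replicate 1, are shown because they differ in base composition and in the short words that intestinal transcription factors are known to bind. Each window runs from 250 bases before to 50 bases after the annotated start (RefSeq, GRCm38.p6), 5′ to 3′ on the strand of the gene, and promoters of 9 of the 10 genes were matched by symbol. Capitals mark 4 words found on either strand: TTTATG, a core of CDX2 sites; GATAA, a core of GATA factor sites; TATAAA, the TATA word; and GGGCGG, the GC box. The Lct window lies at chr1:128328269-128328568 on the minus strand, the Sis window at chr3:72967814-72968113 on the minus strand and the Slc2a1 window at chr4:119108495-119108794 on the plus strand.
Lct: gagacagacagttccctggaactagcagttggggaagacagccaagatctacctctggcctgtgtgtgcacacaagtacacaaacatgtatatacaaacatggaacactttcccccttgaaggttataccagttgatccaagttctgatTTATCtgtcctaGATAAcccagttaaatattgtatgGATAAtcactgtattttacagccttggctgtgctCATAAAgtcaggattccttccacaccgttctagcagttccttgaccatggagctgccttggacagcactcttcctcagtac
Sis: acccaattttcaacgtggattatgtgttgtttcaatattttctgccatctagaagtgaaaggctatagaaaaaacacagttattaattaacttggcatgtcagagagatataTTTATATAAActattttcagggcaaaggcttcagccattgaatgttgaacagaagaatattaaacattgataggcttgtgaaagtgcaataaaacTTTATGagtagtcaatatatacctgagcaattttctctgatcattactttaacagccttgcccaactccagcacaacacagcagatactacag
Slc2a1: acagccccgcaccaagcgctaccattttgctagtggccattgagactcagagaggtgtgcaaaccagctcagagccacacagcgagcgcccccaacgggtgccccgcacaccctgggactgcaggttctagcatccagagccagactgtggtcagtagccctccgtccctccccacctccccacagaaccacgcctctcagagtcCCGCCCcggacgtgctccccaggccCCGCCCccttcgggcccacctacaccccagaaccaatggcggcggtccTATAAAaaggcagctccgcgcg

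The Sis window was AT-rich, with a GC content of 34.0%, while that of Lct held 44.7% and that of Slc2a1 65.3%, against a median of 52.7% over 32851 annotated promoters. In the Sis window the CDX word began 43 bases before the start, and 2 overlapping TATA words began 138 and 134 bases before it. The Lct window held 3 GATA words, which began 101, 89 and 65 bases before the start, and a CDX word 31 bases before it. The Slc2a1 window held 2 GC boxes and a TATA word that lies past the annotated start. Among all promoters of this length, 11.9% held the CDX word, 25.4% the GATA word, 13.6% the TATA word and 35.7% the GC box, so that each word is common by itself and a match marks letters and no bound site. Of the 9 windows, 2 held the CDX word and 3 each the GATA word, the TATA word and the GC box. The 3 windows shown were chosen because they differ, so they do not show how words or GC content go with level. The window of Slc5a1, the highest gene by mean, had a GC content of 60.3% and none of these words. That of Treh held none either. The Khk window, at 65.7% GC, held a GC box, as did that of Slc2a1.

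Factors known to bind such words were expressed. Cdx2, which specifies intestinal epithelium, had 70.6 and 70.1 FPKM in replicates 1 and 2, and Gata4, a factor of the proximal small intestine, 21.7 and 22.8 FPKM. The highest of 10 intestinal transcription factors was Hnf4a, a nuclear receptor of the enterocyte program, at 134 ± 3.18 FPKM, followed by Cdx1 at 71.4 ± 10.01 FPKM. All 10 reached 1 FPKM in both libraries. Here and below, ± is the SD over the 2 libraries (n = 2).

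All 10 carbohydrate genes reached the minimum of 1 FPKM in each library, as did 42.3% of all named genes. FPKM is the number of sequenced fragments, scaled to the length of the transcript and to the total of mapped fragments. Levels of different genes can thus be compared, but base composition is not corrected for. Differences between the libraries fell with GC content (Spearman correlation -0.51), and its part in the order of genes was not tested. Transcripts of the 10 genes ran from 40.5% GC for Sis to 59.4% for Khk. Their values ran from 5.71 to 449 FPKM, and by mean level they lay between percentile 76.2 and percentile 99.1 of all named genes. The steps between the lowest values of the tables implied about 16200000 and 26200000 fragments in replicates 1 and 2, so that each of these genes rested on at least about 437 fragments in a library and at most on about 55043. In bulk samples such as these, fewer cells of a type and less RNA per cell cannot be told apart.

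The hydrolases stood close together near the top of the transcriptome. Lct, the highest by mean, stood at 267 FPKM in replicate 1 and at 349 in replicate 2. Sis had 276 and 284 FPKM, the closest agreement of the 4 as deposited. With replicate 2 rescaled so that the median ratio of all genes was 1, Treh agreed more closely. The log2 differences, replicate 2 minus replicate 1, were then 0.0055 for Treh and -0.088 for Sis. Mgam had 229.6 and 174 FPKM. Treh had 169.9 and 187 FPKM, so the ranges of Treh and Mgam overlapped while Lct and Sis changed places between the libraries. Their means were 308 ± 57.8 FPKM for Lct, 280.0 ± 5.99 for Sis, 202 ± 39.4 for Mgam and 178 ± 12.04 for Treh. All 4 lay above percentile 98 by mean level.

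Set against Sis within each library, where scaling between libraries cancels, Lct reached 96.9% of Sis in replicate 1 and 123% in replicate 2. Mgam reached 83.3% and 61.2%, and Treh 61.6% and 65.8%. As deposited, the ratio of Treh to Sis was thus the steadiest of the 3, at 63.7% ± 2.94, and that of Mgam to Sis was 72.2% ± 15.6. This ranking was lost once the trend of library differences with GC content and length was removed. The log2 differences, replicate 2 minus replicate 1, were then -0.15 for Sis, 0.17 for Treh, -0.41 for Mgam and 0.52 for Lct. Mgam then lay closer to Sis than Treh did. Sis and Mgam are related genes, but none of the 50-base words of annotated Sis transcripts occurred in another gene, and 0.303% of those of Mgam did, all of them in the pseudogene Mgam2-ps. For Treh the share was 1.48%, and for the other 8 genes it was 0.

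Hydrolases that act elsewhere were lower. Of 11 other sugar and starch hydrolases 10 were listed, 7 of which reached 1 FPKM in each library. The highest was Ganab, which trims glucose from glycoproteins in the endoplasmic reticulum, at 51.2 ± 4.31 FPKM. The lysosomal galactosidase Glb1 had 19.8 ± 2.34 FPKM. The pancreatic amylase genes Amy2a5 and Amy2b were listed at 0 in both libraries.

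Slc5a1 was the highest of the 10 genes, with 389 FPKM in replicate 1 and 449 FPKM in replicate 2, or 419 ± 42.4 FPKM, at percentile 99.1. Its relative Slc5a9, or SGLT4, a sodium-coupled carrier known to take mannose and fructose in studies of the human protein, had 7.90 and 10.2 FPKM. That was 2.03% of the Slc5a1 level in replicate 1 and 2.27% in replicate 2. The SLC5 family thus held most of its signal in 1 gene. Of the summed FPKM of 13 listed SLC5 genes, Slc5a1 made up 72.9% and 73.3% in the 2 libraries and Slc5a9 1.48% and 1.66%.

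Other SLC5 genes filled the rest. Of 11 such genes 7 reached 1 FPKM in both libraries. Slc5a11, a carrier of inositol, had 61.7 ± 2.55 FPKM, and Slc5a4b, which encodes a form of SGLT3, 35.2 ± 7.40 FPKM. Slc5a8, a carrier of lactate and short-chain fatty acids, had 14.3 ± 1.05 FPKM. Each of these 3 exceeded Slc5a9 in both libraries. Slc5a2, the SGLT2 of the kidney, had 2.94 and 2.27 FPKM.

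Among the facilitative transporters Slc2a2 led, at 49.4 FPKM in replicate 1 and 69.3 in replicate 2. Slc2a5 had 19.9 and 22.9 FPKM. Slc2a1, or GLUT1, the glucose transporter of most dividing and barrier-forming cells, had 8.69 and 5.71 FPKM. The order Slc2a2, Slc2a5, Slc2a1 held in both libraries without overlap. Slc2a5 reached 40.2% and 33.0% of the Slc2a2 level, and Slc2a1 17.6% and 8.24%. Of the summed FPKM of 12 listed SLC2 genes, Slc2a2 made up 50.3% in replicate 1 and 59.1% in replicate 2, Slc2a5 20.2% and 19.5%, and Slc2a1 8.85% and 4.87%.

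The remaining SLC2 genes were low, and 4 of 9 reached 1 FPKM in both libraries. Slc2a9, a urate transporter, had 7.50 ± 0.197 FPKM and Slc2a7, an intestinal member of the family, 6.11 ± 0.224 FPKM. Slc2a8 had 3.95 ± 0.183 FPKM. Slc2a1 lay above Slc2a9 in replicate 1 and below it in replicate 2. Slc2a2 itself stood at 12.7% of the level of Slc5a1 in replicate 1 and 15.4% in replicate 2.

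**Figure D1:**
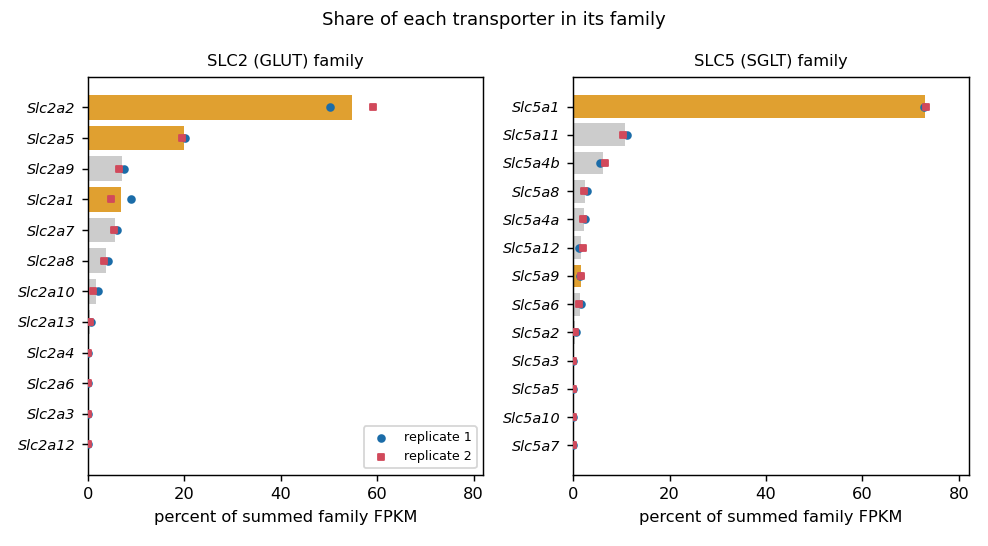
Share of each listed SLC2 and SLC5 gene in the summed FPKM of its family, in percent. Bars are means of the 2 libraries, circles are replicate 1, squares are replicate 2, and orange bars are the hexose transporter genes described here. Slc5a1 holds 72.9% and 73.3% of its family and Slc2a2 50.3% and 59.1%.

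Khk stood at 248 FPKM in replicate 1 and at 236 in replicate 2, or 242 ± 9.01 FPKM, above the fructose transporter Slc2a5 in both libraries. Other enzymes of the fructose and polyol list were abundant as well. Tkfc, which phosphorylates the glyceraldehyde released from fructose, had 143 ± 16.04 FPKM. Sord, which makes fructose from sorbitol, had 79.2 ± 9.43 FPKM, although 31.3% of its 50-base words also occurred in other genes. All 5 genes of the fructose and polyol list reached 1 FPKM in both libraries. Values are per gene, so the A and C forms of ketohexokinase were not separated.

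**Figure D2:**
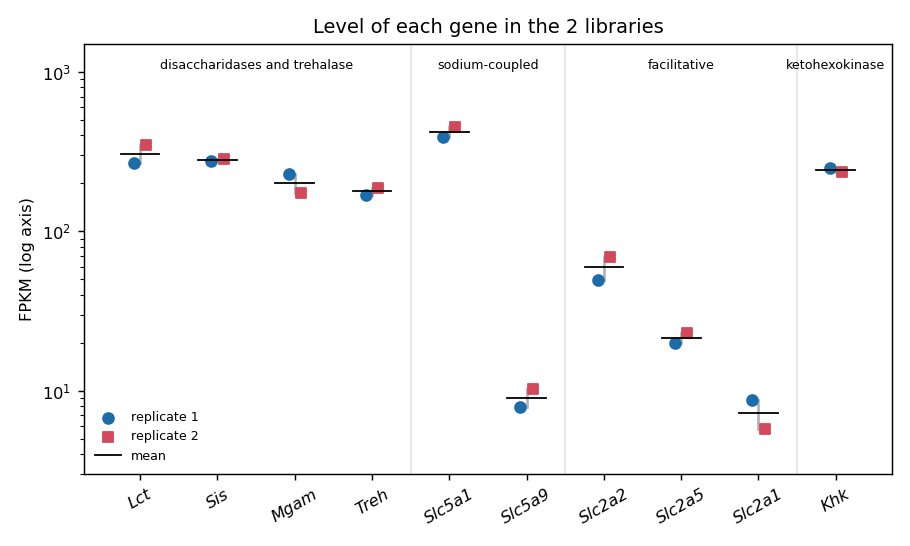
FPKM of the 10 carbohydrate genes on a log axis, grouped by role. Circles are replicate 1, squares are replicate 2, and bars are the means of the 2 libraries. The hydrolases, Slc5a1 and Khk lie between 169.9 and 449 FPKM, while Slc5a9 and Slc2a1 lie near the lower end at 5.71 to 10.2 FPKM.

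By mean level on the log2(FPKM + 1) scale the order was Slc5a1, Lct, Sis, Khk, Mgam, Treh, Slc2a2, Slc2a5, Slc5a9, Slc2a1. A limit was read for each pair, the size of library difference that 95% of the 200 genes closest to the mean level of the pair stayed under. A pair was called separated where its values did not overlap and its means lay farther apart than this limit. This held for 3 of 9 neighbouring pairs. Treh exceeded Slc2a2 by 1.59, Slc2a2 exceeded Slc2a5 by 1.42 and Slc2a5 exceeded Slc5a9 by 1.16, against limits of 0.62, 0.53 and 0.73. Slc5a1 and Lct did not overlap, but their difference of 0.45 lay under the limit of 0.68. Lct and Sis, Mgam and Treh, and Slc5a9 and Slc2a1 overlapped.

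The 6 highest genes, between 169.9 and 449 FPKM, were therefore mostly not told apart. Among their 15 pairs 5 were separated, namely Slc5a1 from Khk, Mgam and Treh, and Lct and Sis from Treh. Over all 45 pairs of the 10 genes 34 were separated. Sis and Treh lay 0.65 apart, and their call was lost with the larger of the limits read at the level of either gene, 0.79, a setting chosen after the data were seen. A gene has only 2 values here, so no p is given.

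The genes for galactose, hexose phosphorylation and the sodium gradient were then read as context, from 10 lists with 83 genes in all. All 7 genes of the Leloir pathway, which turns galactose into glucose phosphate, reached 1 FPKM in both libraries. Among them Galm, the mutarotase, had 59.2 ± 11.5 FPKM and Pgm1, phosphoglucomutase, 43.8 ± 3.66 FPKM. Atp1b1, a subunit of the sodium pump that drives SGLT1, had 393 ± 49.9 FPKM. The sodium-proton exchanger Slc9a3 had 33.0 ± 0.410 FPKM.

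Of 12 genes of hexose phosphorylation and release 10 reached 1 FPKM in both libraries. Fbp2, a fructose bisphosphatase, had 224 ± 25.1 FPKM, and Gpi1, glucose phosphate isomerase, 155 ± 5.48 FPKM, of whose 50-base words 18.6% occurred in other genes. Hkdc1, a hexokinase relative, led the hexokinases at 61.9 ± 13.5 FPKM, above Hk2 at 6.73 ± 2.48 FPKM. All 7 sugar-responsive regulators and targets reached 1 FPKM, led by Txnip, an arrestin-like protein induced by glucose, at 114 ± 5.45 FPKM, Pklr, a pyruvate kinase, at 100.2 ± 2.32 FPKM and Mlx, the partner of the sugar sensor ChREBP, at 64.8 ± 0.408 FPKM. Of the sweet taste list 1 of 4 did so, Gnat3, the taste G protein, at 1.94 and 1.55 FPKM. Tas1r3, a subunit of the sweet receptor, had 0.222 and 0.193 FPKM. Rsc1a1, a regulator of SGLT1, is uncertain at 0.559 and 1.75 FPKM, since all of its 50-base words also lie in Ddi2 transcripts.

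**Figure D3:**
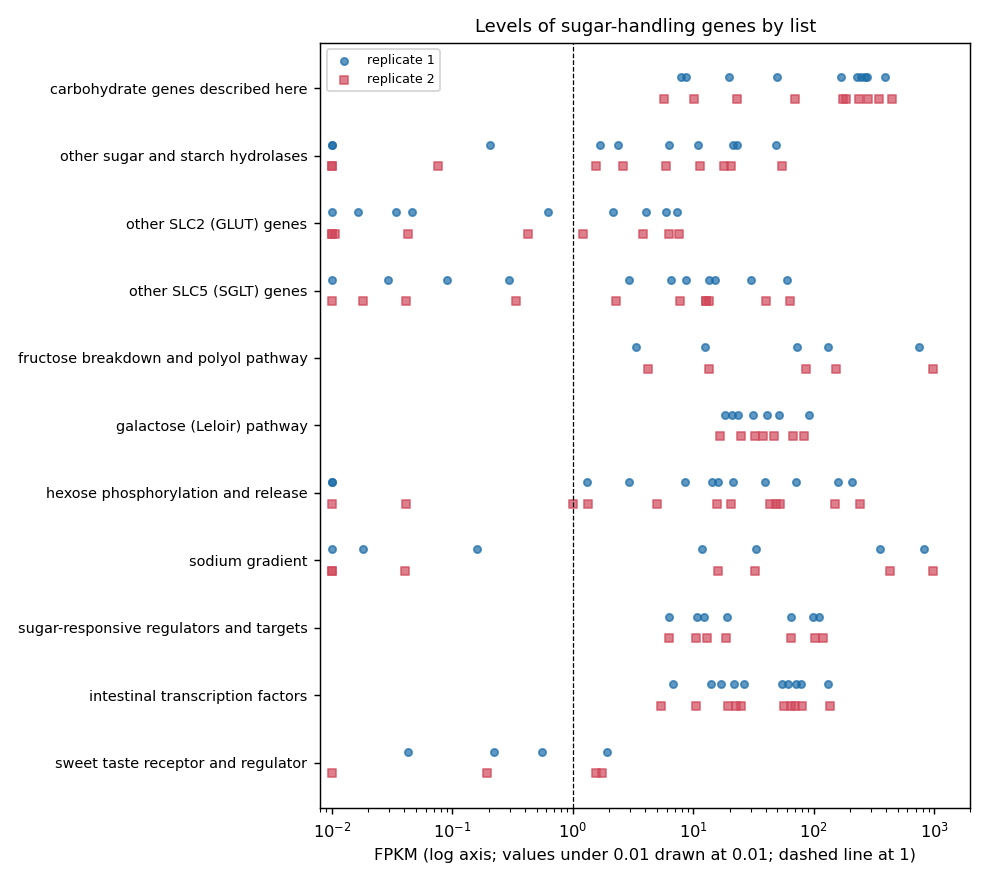
FPKM on a log axis of the 10 carbohydrate genes (top line) and of each list of related genes. Each symbol is 1 gene in 1 library, with circles for replicate 1 and squares for replicate 2, and the dashed line marks 1 FPKM. The 10 carbohydrate genes and the fructose, galactose, sugar-responsive and transcription factor lists lie wholly above the dashed line, and most of the sweet taste list lies under 1 FPKM.

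The labelled tissue and cells were checked against their markers. All 8 epithelial identity genes and all 10 absorptive enterocyte genes reached 1 FPKM in both libraries, led by the keratins Krt8 at 2249 ± 301 and Krt19 at 1081 ± 198 FPKM and by the apolipoproteins Apoa1 at 16969 ± 3315 and Apoa4 at 8234 ± 2604 FPKM. Of the distal ileum list, Fabp6, the ileal bile acid binding protein, had 1247 and 390 FPKM, and Slc51a, a basolateral bile acid exporter subunit, 231 and 181 FPKM, but Slc10a2, the apical bile acid transporter that defines the distal ileum, had 3.57 and 2.83 FPKM. Of the proximal list, Fabp1 had 3209 and 4884 FPKM and Gata4 the values above, while Cybrd1, the duodenal iron reductase, stayed at 0.499 and 0.682 FPKM. Lct and Slc2a5 are known for higher levels in proximal than in distal small intestine, and the part of position along the gut in their levels was not tested. Lists of leukocytes, fibroblasts, endothelium, smooth muscle and pancreas summed to at most 12.6 FPKM each, with Lyz2 of the myeloid list the highest gene at a mean of 6.48 FPKM, Gzma of the T cell list at 2.72 and 7.29 FPKM in the 2 libraries and Cela1 of the pancreas list at a mean of 3.73 FPKM. The red blood cell list summed to 49.96 and 41.3 FPKM, led by Hbb-b1 at 24.4 FPKM on average.

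The differences of the carbohydrate genes between the libraries were set beside those of all tested genes, which were not matched for level. The median of mean levels was 190 FPKM for the 10 genes and 8.54 FPKM for all tested genes. On the log2(FPKM + 1) scale, replicate 2 minus replicate 1 had a median of 0.16 over the 10 genes, with 7 higher and 3 lower, against a median of 0.11 over the 10601 genes whose mean reached 1 FPKM. A difference was called where it exceeded 0.5 in size, which says nothing of chance. None of the 10 genes was called higher, against 6.78% of all tested genes, and 1 was called lower, against 4.74%. A set of 10 genes is too small to tell its shares from these. For none of the 10 did the difference exceed the limit read at the level of the gene itself, which ran from 0.54 to 0.79.

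Slc2a1 was the gene called lower, with 8.69 FPKM in replicate 1 and 5.71 FPKM in replicate 2. Replicate 1 thus stood 1.52 times above replicate 2, a difference of -0.53 on the log2(FPKM + 1) scale, against a limit of 0.64 at this level. The exact Poisson 95% intervals of 7.90 to 9.55 and of 5.20 to 6.25 FPKM did not overlap, and they cover counting error only. The difference was -0.64 with the median ratio of all genes set to 1, -0.34 with epithelial and enterocyte genes set equal and -0.38 after removal of the GC and length trend, so the call was lost under the last 2. Here and below, epithelial and enterocyte genes set equal means that replicate 2 was divided by 0.856, the median ratio of 18 such genes. Single genes among them still differed between the libraries.

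Slc2a2 lay just under the threshold, at 0.48, with replicate 2 1.40 times above replicate 1. Lct differed by 0.38, a ratio of 1.31, and Mgam by -0.40, with replicate 1 1.32 times above replicate 2. Mgam passed the threshold with the median ratio set to 1, at -0.53, and Lct with the GC and length trend removed, at 0.52. With epithelial and enterocyte genes set equal, Slc2a2 (0.70), Lct (0.61) and Slc5a9 (0.54) passed it. The remaining differences were 0.33 for Slc5a9, 0.21 for Slc5a1, 0.19 for Slc2a5, 0.14 for Treh, 0.04 for Sis and -0.08 for Khk.

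Under 6 settings (the values as deposited, these 3 alternatives and pseudocounts of 0.1 and 0.01), 6 genes were higher in replicate 2 in each (Slc5a1, Lct, Treh, Slc2a2, Slc2a5 and Slc5a9) and 2 were lower in each (Mgam and Slc2a1). The direction of Sis and of Khk flipped between settings, with ranges of -0.15 to 0.27 and of -0.21 to 0.20. Scaling also moved the background: with the median ratio set to 1, 2.93% of all tested genes were called higher and 7.55% lower, and with epithelial and enterocyte genes set equal, 23.2% and 2.32%. The latter moved the median of all tested genes from 0.11 to 0.31. Each rescaling multiplies replicate 2 by a constant, which shifts every gene and this median by nearly the same amount. That Slc2a2, Lct, Slc5a9, Slc5a1, Slc2a5 and Treh stayed above the median is therefore no separate check. A change of pseudocount cannot alter a sign. Treh lay at 0.0055 with the median ratio set to 1, so its direction there rested on very little. With the GC and length trend removed, Slc5a1 lay at 0.115, against a median of 0.112 over all genes so treated.

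**Figure D4:**
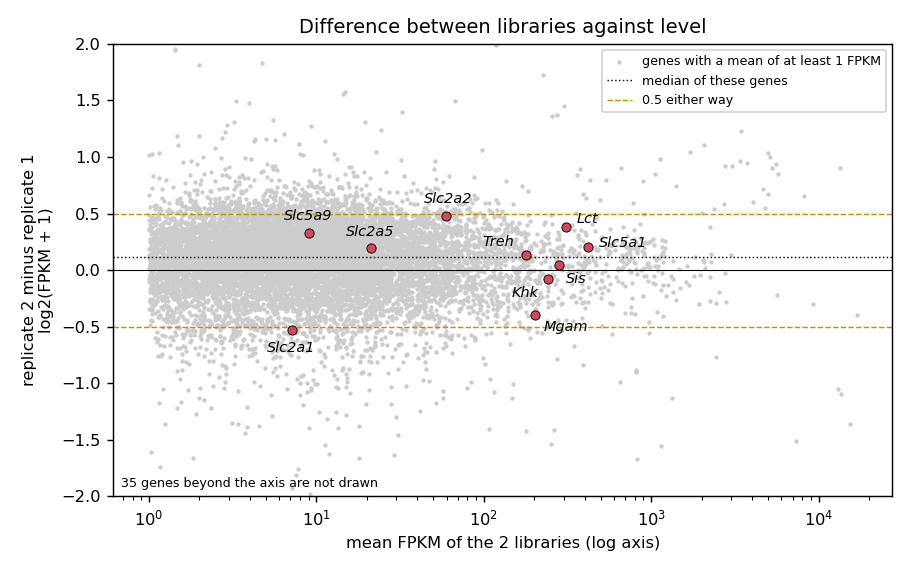
Difference between the libraries on the log2(FPKM + 1) scale against mean FPKM on a log axis. Grey points are the 10601 genes whose mean reached 1 FPKM, red points are the carbohydrate genes, the dotted line is the median of 0.11 and the dashed lines mark 0.5 either way; 35 genes lie beyond the axis. Slc2a1 at -0.53 is the only red point past a dashed line.

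**Figure D5:**
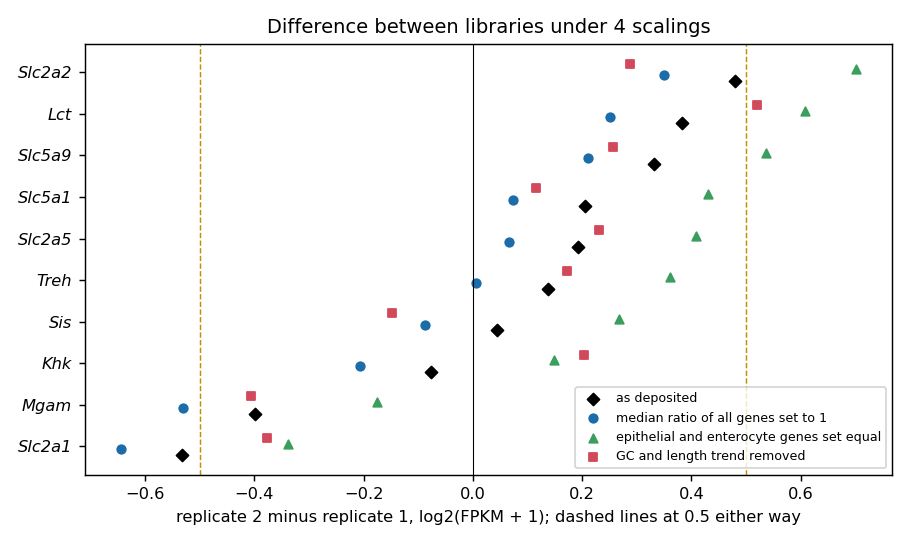
Difference between the libraries for the 10 genes on the log2(FPKM + 1) scale. Diamonds are the values as deposited and circles have the median ratio of all genes set to 1. Triangles have the median ratio of 18 epithelial and enterocyte genes set to 1, and squares have the GC and length trend removed. Slc2a1 ranges from -0.64 to -0.34 among these, and Sis and Khk have points on both sides of 0.

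Markers of cell types and regions differed between the same libraries. The 7 goblet genes were lower in replicate 2 in 7 cases (median -1.05, summed level 40304 and 19208 FPKM), led by the trefoil peptide Tff3 and the lectin-like Zg16, and the 6 Paneth genes were higher in 6 (median 0.77, summed level 12841 and 23625 FPKM), led by the defensin Defa24, one of a family of similar copies, and the lysozyme Lyz1. The 6 distal ileum genes were lower in 6 (median -0.30), of which 1, Fabp6, was called. Of the 4 proximal genes whose mean reached 1 FPKM 3 were higher (median 0.16, against 0.11 over all tested genes), of which 1, Fabp1, was called. The remaining proximal gene, Slc40a1, was called lower, with 20.6 and 9.54 FPKM and a difference of -1.03. Proliferation genes, led by Pcna and Top2a, were higher in 7 of 7 (median 0.48). Of the 10 absorptive enterocyte genes 5 were higher, 2 of them called, and 5 lower, 2 of them called (median -0.11). Of the villus tip genes 3 were higher and 3 lower, with 1 called each way. Epithelial identity genes were lower in 8 of 8 (median -0.32, none called), tuft genes in 5 of 5 (median -0.59, all called) and enteroendocrine genes in 8 of 9 (median -0.46, 4 called). Of 5 villus base genes 3 were called lower, with Reg3b, an antimicrobial lectin, at 22213 and 8616 FPKM and its relative Reg3g at 10937 and 3822 FPKM, and of 5 stem cell genes 4 were higher (median 0.39). The part of these shifts, and that of sex, in the differences of Slc2a1, Slc2a2, Lct and Mgam was not tested.

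In the related lists, 63 genes reached a mean of 1 FPKM, of which 4 were called higher (6.35%) and 3 lower (4.76%), near the background shares above. Fbp1, a fructose bisphosphatase of glucose synthesis, had 21.4 and 43.0 FPKM, a difference of 0.97, and Hnf4g, a relative of Hnf4a, 54.3 and 79.6 FPKM, a difference of 0.54. Hk2, a hexokinase of proliferating cells, had 8.48 and 4.97 FPKM, a difference of -0.67. No gene of the fructose, Leloir, sodium gradient or sugar-responsive lists was called.

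In the mm10 assembly (GENCODE M21) the 10 genes are protein-coding, and FPKM summarises their exons. Lct lies on chromosome 1 from 128284756 to 128328318 on the minus strand. On chromosome 3, Slc2a2 runs from 28697903 to 28731359 on the plus strand and Sis from 72888557 to 72967863 on the minus strand. On chromosome 4, Slc5a9 runs from 111875375 to 111902918 on the minus strand, Slc2a1 from 119108711 to 119137983 and Slc2a5 from 150119283 to 150144169, both on the plus strand. On chromosome 5, Khk runs from 30921431 to 30931248 and Slc5a1 from 33104219 to 33162870, both on the plus strand. Mgam lies on chromosome 6 from 40628831 to 40769123 and Treh on chromosome 9 from 44673233 to 44686305, both on the plus strand.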

How the data were processed

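The authors deposited 1 FPKM value per gene symbol for each library. TopHat2 2.0.14, Cufflinks 2.2.1 and mm10 are named in the submitters' processing notes, while for the annotation, read length and strand setting there is nothing in the sources used here. Of 24384 rows, 27 named by a calendar date were left out. No count model was applied to FPKM. Values were taken as log2(FPKM + 1), which understates differences of low genes, and differences were read over genes whose mean reached 1 FPKM.

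The members and lists were chosen with earlier results of these data known. Named genes are all 10 members, the 3 highest genes of each related list, its called genes of 5 FPKM or more on average, the 2 highest of each marker list used and the highest for cells outside the epithelium. Amy2a5, Amy2b, Slc5a2, Slc5a6, G6pc, Slc37a4, Slc10a2, Cybrd1, Slc40a1, Gip, Xist and Eif2s3y were named after their values were seen. Some genes that the rule names are not reported here. With 2 libraries of 1 group, likeness of pattern between genes cannot be measured.

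Depth was read from the step of 1 fragment in genes with 1 annotated transcript (FPKM times length less 160 bases). Of low values, 62.0% and 59.9% were whole fragment numbers to within 0.05, so those printed are approximate. Length, GC content and 50-base words came from GENCODE M21. The GC and length trend was removed as the median in 10 GC classes with 5 length classes each, over 96.5% of the genes tested. The spread limit and the trend removal were tested on simulated data. Python 3.11.15, numpy 2.4.6, pandas 2.3.3, scipy 1.17.1 and matplotlib 3.10.9 were used.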

Additional observations from a re-analysis of the deposited data

How the results depend on the processing

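All 10 genes stayed at or above the minimum at 0.1 or 5 FPKM, with no minimum and without either library, and 3 of 9 neighbouring pairs were separated with fewer or more nearest genes, with pseudocounts of 0.1 and 0.01 and with the larger of the limits of both genes, under which 33 of all 45 pairs were separated. Of 9 neighbours, 7 were in the order of the means without replicate 2 and 8 without replicate 1. The median difference of the 10 genes ranged from 0.04 with the median ratio set to 1 to 0.38 with epithelial and enterocyte genes set equal. Genes called lower went from 1 to 2 with the median ratio set to 1, and to 0 with epithelial and enterocyte genes set equal, with the GC and length trend removed, and at a threshold of 1. Genes called higher went from 0 to 3 with epithelial and enterocyte genes set equal and to 1 with the trend removed. The shares of all tested genes also moved with the setting. They were 23.2% higher and 2.32% lower with epithelial and enterocyte genes set equal, and 5.07% and 3.31% with the trend removed. Of the 63 related genes tested, calls higher went from 4 to 11 with epithelial and enterocyte genes set equal. That setting called 23.2% of all tested genes higher. Calls lower of the related genes went from 3 to 1 with epithelial and enterocyte genes set equal or the trend removed. Both counts went to 0 at a threshold of 1. The shares of all genes at that threshold were not read, so the counts of 0 there, also that of the 10 genes, are no result about these genes. The cause of these shifts was not tested. The number of libraries, 2, limits every statement on spread.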

Other observations

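Beyond uptake, transcripts for making and releasing glucose were present in the sorted cells. Fbp2 stood at 207 and 242 FPKM and Fbp1 at 21.4 and 43.0 FPKM in replicates 1 and 2. G6pc, the glucose 6-phosphatase that frees glucose, had 15.9 and 20.4 FPKM, and Slc37a4, the carrier that brings it its substrate, had 39.7 and 48.8 FPKM. Gip, the incretin hormone gene of the upper small intestine, which is released by sugar, had 1144 and 1244 FPKM.

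Members of the SLC5 family that carry no hexose were also expressed. Slc5a12, a lactate carrier, stood at 6.49 FPKM in replicate 1 and at 12.9 in replicate 2, a difference of 0.89 on the log2(FPKM + 1) scale. Slc5a8 of the same substrate class had 15.1 and 13.6 FPKM. Slc5a6, a carrier of biotin and pantothenate, had 8.68 and 7.69 FPKM.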
